A study of Homo sapiens with 4 samples.

Results

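Subtelomeric H3.3 intervals were defined as the distinct peak intervals on chromosomes 1 to 22 whose centre lay within 1 Mb of either end of the chromosome in hg38. There were 2197 such intervals in the list without UV, of 87302 autosomal intervals, and 2440 in the list after UV, of 75823. H3.3 was immunoprecipitated from human lung fibroblasts, named MRC5 in the sample labels, with MRC5_WT in every title, and MRC5_VA, an SV40-immortalized line, in the study's methods. Both libraries thus came from the cells marked WT. The no UV library came from untreated cells. The UV library came from cells that received 10 J/m2 of UV-C and recovered for 3 h. The DNA of 3 replicates was pooled before sequencing, so each condition had 1 library. Differences between the lists therefore come without replicate error and without a test. The next 1 Mb inward on each arm, with 2554 intervals without UV and 3013 after UV, served as the reference, and the remainder of the autosomes held 82551 and 70370.

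H3.3 is the histone H3 variant that is placed into chromatin outside of replication. The HIRA complex deposits it at active genes and regulatory elements, and ATRX with DAXX deposits it at telomeres and other repeats. Subtelomeres lie between the telomere repeat (TTAGGG on the strand that runs towards the end) and the single-copy part of the arm. They hold blocks of sequence duplicated between chromosomes, gene families such as WASH, DDX11L, OR4F and DUX4, and CpG-rich elements near the telomere from which the telomeric RNA TERRA is transcribed. Many human subtelomeres continue inward into gene-rich, GC-rich sequence.

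Peak lists carry no read numbers, so the depth of both libraries is unknown and a peak missing from 1 list can lie below its threshold. The lowest −log10 q, the peak caller's significance after correction, was 1.3 in both lists. Because q depends on depth, a −log10 q of 1 list cannot be set against that of the other as a rise or fall, and the percentile within the interval's own list is given beside it. Every interval given below covers counting error only. Of 14 fibroblast markers, 8 had a peak around a TSS without UV and 8 after UV. *COL3A1*, *DCN*, *LUM*, *THY1* and *COL6A3* had none in either list, *PDGFRA* none without UV and *FAP* none after UV. Of 11 markers of other cell types, 5 had one without UV and 4 after UV. Among all autosomal protein-coding genes the shares were 49.1% and 55.2%, so these counts say little about the cell type. Of the 44 autosomal arms, 39 have assembled sequence in the outer 1 Mb, and the short arms of the 5 acrocentric chromosomes do not. The members' farthest centres lay 999.266 kb (no UV) and 999.8 kb (UV) from an end, and the nearest intervals outside lay at 1000.11 and 1000.22 kb.

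The hg38 sequence under the summits shows how base composition differs between the members described below. Each line gives 300 bases of the plus strand. The first shows the strongest UV interval near an end with fewer than 4 hexamers (18p), chosen after its values were seen, with every CG in capitals. A telomere hexamer is a copy of CCCTAA or TTAGGG. The last pair, from far inside the window, shows the strongest interval found in the UV list only (11q) and in the no UV list only (5q), also with CG in capitals.
18p, chr18:11983-12282: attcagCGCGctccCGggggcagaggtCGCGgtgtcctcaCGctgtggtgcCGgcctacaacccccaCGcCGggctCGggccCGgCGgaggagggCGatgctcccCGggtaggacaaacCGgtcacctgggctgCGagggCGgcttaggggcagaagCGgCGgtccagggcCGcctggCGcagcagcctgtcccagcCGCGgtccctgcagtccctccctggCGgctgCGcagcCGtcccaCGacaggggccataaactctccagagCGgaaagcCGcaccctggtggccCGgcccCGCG
11q, chr11:134224795-134225094: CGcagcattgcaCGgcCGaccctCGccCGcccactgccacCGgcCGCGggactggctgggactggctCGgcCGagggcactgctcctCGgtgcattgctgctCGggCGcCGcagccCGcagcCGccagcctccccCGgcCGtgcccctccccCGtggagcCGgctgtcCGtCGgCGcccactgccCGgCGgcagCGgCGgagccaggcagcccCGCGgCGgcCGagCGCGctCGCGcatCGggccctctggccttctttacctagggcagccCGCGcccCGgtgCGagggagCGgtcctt
5q, chr5:181235445-181235744: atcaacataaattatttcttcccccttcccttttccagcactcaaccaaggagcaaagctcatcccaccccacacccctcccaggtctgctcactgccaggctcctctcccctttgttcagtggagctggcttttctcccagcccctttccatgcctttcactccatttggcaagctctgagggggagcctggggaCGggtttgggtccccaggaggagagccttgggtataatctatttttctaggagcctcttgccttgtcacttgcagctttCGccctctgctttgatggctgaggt

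The 18p window holds 32 CG in 300 bases and a GC content of 74.0%. The 11q window, also GC-rich at 78.3%, holds 41 CG, while the 5q window holds 2 CG at a GC content of 54.3%.

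The intervals formed a separate cluster at the very end of the assembled sequence. The limits of 5 and 20 kb used to describe it were not among the planned settings. The farthest centre of the cluster lay 3181 bases from the first assembled base. The counting intervals do not cover this choice of limits. Within 5 kb of the first assembled base there were 25 intervals without UV and 30 after UV over the 39 ends, which is 128 per Mb (95% exact Poisson interval 83.0 to 189) and 154 per Mb (104 to 220). From 5 to 20 kb inward there were none at any of the 39 ends in either list, with an exact Poisson upper limit of 6.31 per Mb. From 20 to 50 kb the density was 19.7 and 23.9 per Mb, and from 50 to 100 kb 20 and 21.03 per Mb. Sequence that occurs more than once in hg38, measured as the share of 100-base words with a second copy, made up 56.8% of the first 5 kb, 57.8% of the stretch from 5 to 20 kb and 44.4% from 20 to 50 kb. The terminal intervals themselves averaged 27.3% repeated words without UV and 28.5% after UV. How the authors placed reads with several matches is not given in the sources used here, and its part in these counts was not tested.

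These terminal intervals lay at 21 of the 39 ends, 17 of them in both lists. The ends of 2q and 15q had one in the UV list only, those of 4p and 18q in the no UV list only, and 18 ends had none. Of the 24 ends whose assembled sequence starts 10 kb from the chromosome end in hg38, 19 had a terminal interval, against 2 of the 15 ends whose sequence starts at another distance. Of 22 ends with at least 10 hexamers in the first assembled kb, 18 had one, against 3 of the other 17.

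Terminal intervals were split by their number of telomere hexamers. Those with at least 4 telomere hexamers, 11 without UV and 12 after UV, had a median GC content of 53.3% and 54.0% and their centres lay a median of 362.5 and 367.75 bases from the first assembled base. The other 14 and 18 lay further in, at medians of 1298 and 1248 bases. Their GC content was higher, with medians of 68.0% and 69.0%, and they held a median of 9.32 and 9.83 CG per 100 bases, against 2.49 and 2.43 in the hexamer-rich intervals. The hexamer has as much GC as AT and no CG, so this contrast follows in part from the split. The GC contents also overlapped. Without UV they ran from 49.6 to 62.2% in the hexamer-rich intervals and from 55.1 to 73.1% in the others. After UV these ranges were 49.8 to 62.4% and 45.9 to 73.9%. A counterpart in the other list, meaning an overlap of at least 1 base, was found for 8 of the 11 hexamer-rich intervals without UV and 8 of the 12 after UV, and for 13 of 14 and 13 of 18 of the others.

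The 5 intervals of each list nearest to a chromosome end all held at least 12 hexamers. Without UV they lay on 13q, 12p, 1p, 9p and 21q, and after UV on 2q, 19q, 1p, 12p and 12q. The no UV interval with the most hexamers (71, and 76 after UV) lay at 22q and spanned chr22:50807665-50808440 without UV (9.35, percentile 76.9) and chr22:50807678-50808554 after UV (37.2, percentile 95.4). This element was thus present in both lists, at a higher rank after UV.

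Among the terminal intervals with fewer than 4 hexamers, those of 18p and 4q were the strongest after UV. These ends, and 16p beside them, were chosen after their values were seen. The 18p interval, inside the lncRNA gene *LINC02564*, spanned chr18:11867-12409 without UV (52.7, percentile 99.1) and chr18:11858-12381 after UV (69.5, percentile 98.8). The 4q interval, at the end distal to the DUX4 repeat array, spanned chr4:190203088-190203779 (23.9, percentile 94.3) and chr4:190203073-190203840 (48.1, percentile 97.2). At 16p, next to *DDX11L16* and *DDX11L10*, the rank went the other way, from percentile 96.4 (chr16:10191-10998) to 83.0 (chr16:10163-10999). Over the 17 ends with terminal intervals in both lists, the highest percentile was higher in the UV list at 11 and lower at 6. In 7 terminal intervals without UV and 7 after UV at least 50% of the 100-base words had a second copy in hg38. Those of 18p (77.5% without UV and 76.5% after UV) and 4q (66.1% and 61.3%) were among them, so their reads could also match other places. Another 6 and 7 had no repeated word at all, among them those of 3p and the stronger one of 12q. Only exact copies within hg38 were counted, so near-identical copies and unassembled telomere sequence were missed. A 3p interval with 54 hexamers without UV and 47 after UV had no repeated word. Unique placement of reads thus does not follow.

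**Figure D1:**
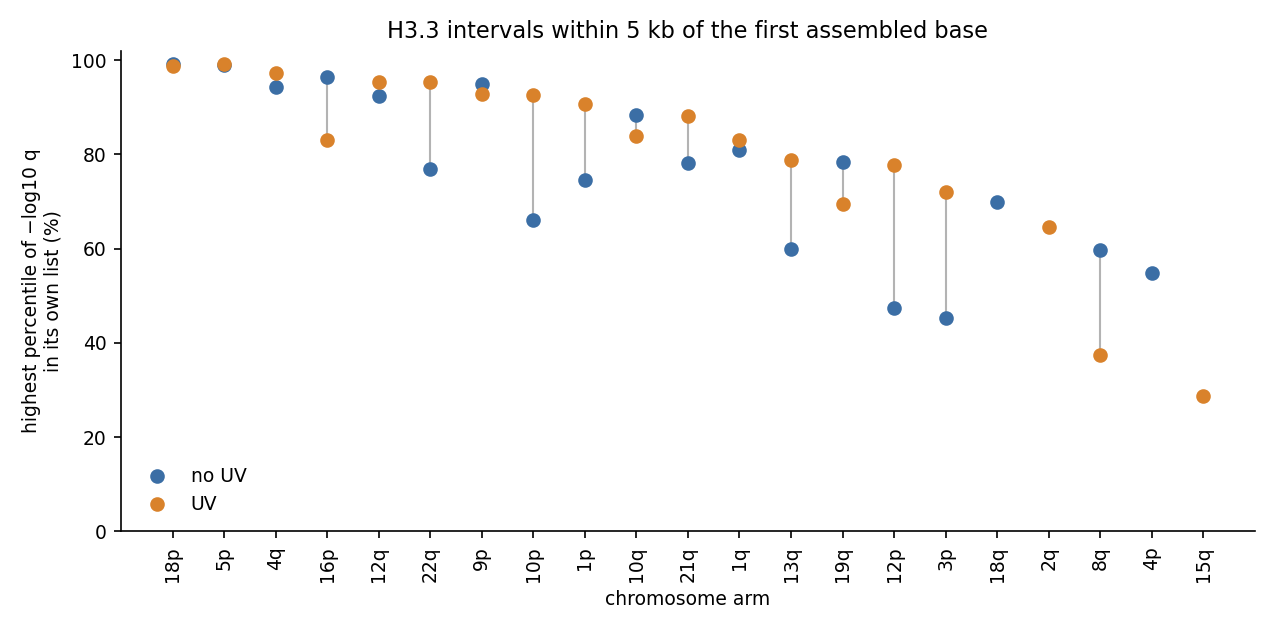
Highest percentile of −log10 q within its own list (vertical axis, %) among intervals within 5 kb of the first assembled base, for each of the 21 ends that had one in either list (horizontal axis). Blue points are the no UV list, orange points the UV list, and grey lines join ends present in both; 11 of 17 joined ends were higher in the UV list.

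Telomere repeats were not confined to the terminal intervals. Of all autosomal intervals, 35 without UV and 32 after UV held at least 4 hexamers, and 17 and 16 of these lay in the outer 1 Mb, 11 and 12 of them within 5 kb of the first assembled base. The remaining 6 and 4 subtelomeric ones lay at internal telomere-like repeats, such as chr4:190122589-190123241 on 4q (61 hexamers, −log10 q 23.5, percentile 94.1 without UV), 91.6 kb from the end.

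Beyond the terminal cluster the density of H3.3 intervals was low and rose with distance from the end. In bins of 100 kb it was lowest from 100 to 200 kb, at 18.4 intervals per assembled Mb without UV and 19.98 after UV. It was 34.1 and 37.7 from 200 to 300 kb, 54.7 in both lists from 400 to 500 kb, and 82.6 and 92.7 from 500 to 600 kb. Up to 900 kb it stayed at or above 78.7 without UV and 88.1 after UV, then fell to 60.3 and 70.8 in the last 100 kb of the window. The outer 500 kb held 38.2 intervals per Mb without UV and 41.8 after UV, against 78.1 and 87.3 from 500 to 1000 kb. Repeated sequence made up 37.4% of the outermost 100 kb and 27.4% of the next 100 kb, 8.97% of the whole outer window and 2.01% of the next 1 Mb. Counted per base that occurs once, the density of the outermost 200 kb was 34.2 and 37.9 per Mb, still below the 80.9 and 90.5 from 500 to 1000 kb.

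**Figure D2:**
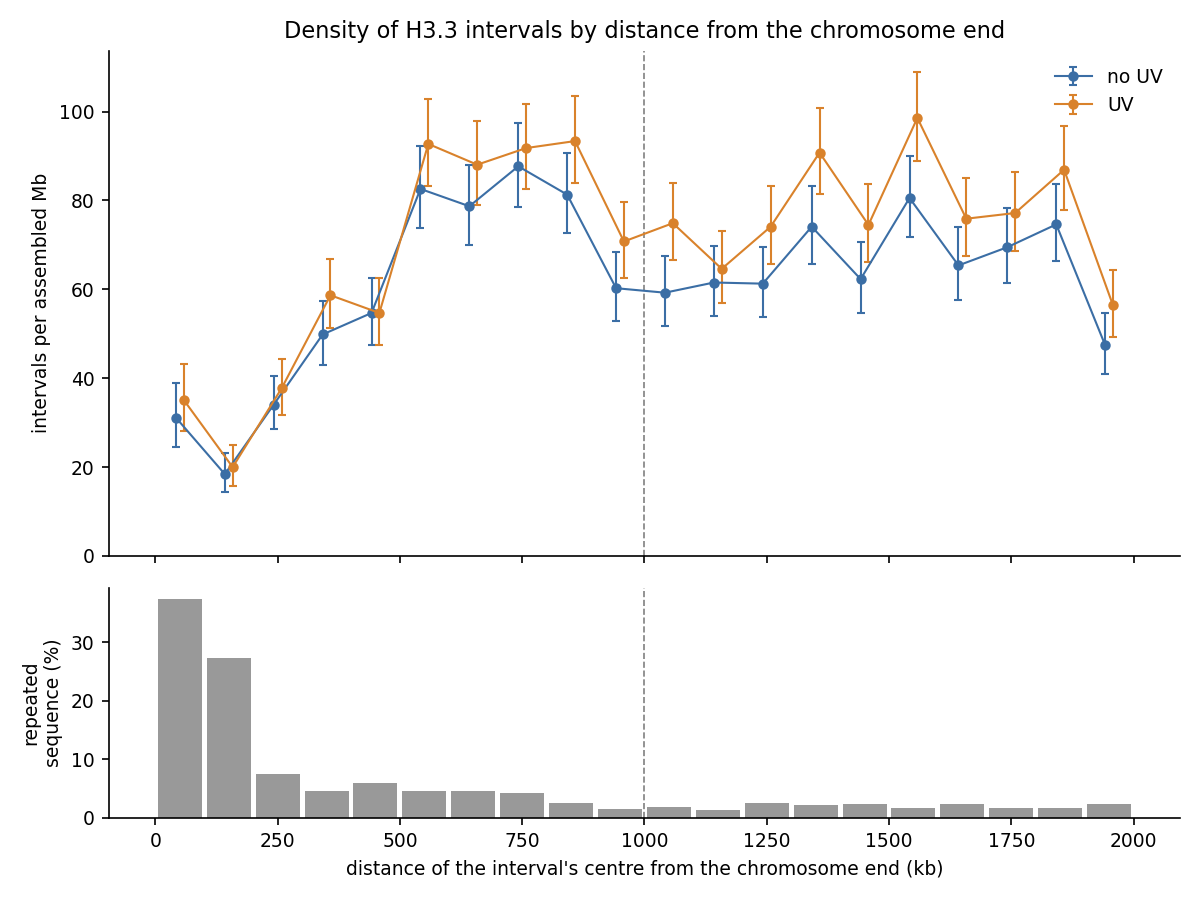
Upper panel: H3.3 intervals per assembled Mb (vertical axis) in bins of 100 kb by distance from the chromosome end (horizontal axis, kb), with exact Poisson 95% intervals, blue for no UV and orange for UV. Lower panel: share of 100-base words with a second copy in hg38. The dashed line marks the edge of the window at 1000 kb; the lowest of these bins was 100 to 200 kb (18.4 and 19.98 per Mb).

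Chromosome arms differed far more from each other than the 2 lists did. Per assembled Mb, 11p was the densest arm with 253 intervals without UV and 266 after UV, followed by 16p (214 and 245) and 19p (170 and 195). These 3 arms held 27.8% and 27.7% of the members, and the 9 fullest arms of each list held 60.9% and 61.7%. The distal part of 11p carries a gene-dense block with *IFITM*, *IRF7*, *EPS8L2* and *CD151*, distal 16p the alpha-globin cluster and its housekeeping neighbours, and distal 19p *PTBP1*, *FSTL3* and the neutrophil protease genes. At the other extreme, 14q, where the immunoglobulin heavy chain locus reaches the telomere, had no interval in either list over 0.84 assembled Mb (3 counts would be 3.57 per Mb). On 3p there were 2 and 3 intervals, all within a few kb of the first assembled base. On 4q and 6p there were 3 without UV and 4 after UV each. Over the 39 arms, the number of intervals and the number of protein-coding genes in the outer 1 Mb had a Pearson r of 0.766 without UV and 0.786 after UV (Spearman rho 0.735 and 0.773), as a description of arms that share both libraries and one annotation.

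**Figure D3:**
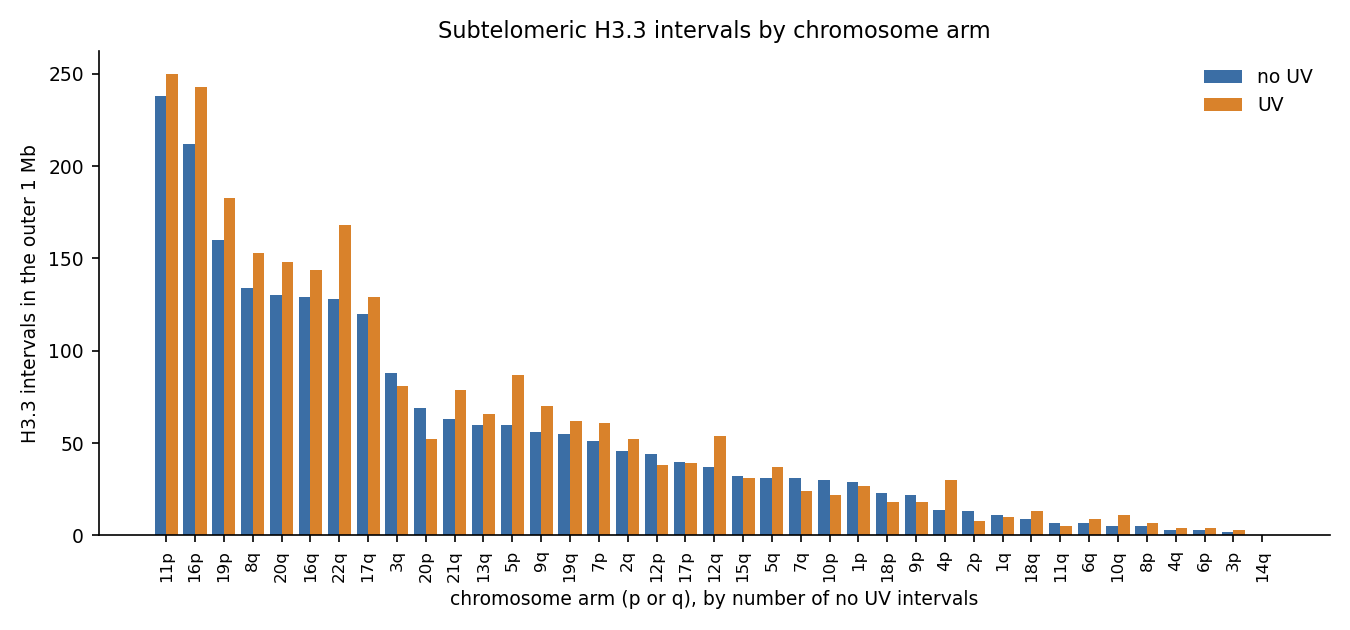
Number of H3.3 intervals in the outer 1 Mb (vertical axis) for each of the 39 arms with assembled sequence there (horizontal axis, ordered by the no UV count), blue for no UV and orange for UV. Counts run from 238 and 250 on 11p to 0 and 0 on 14q.

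The UV list was longer than the no UV list on 25 arms, shorter on 13 and equal on 1. On each of the 8 arms with at least 100 intervals without UV the UV list was the longer, with ratios from 1.05 on 11p to 1.31 on 22q. The exact 95% interval of the ratio lay above 1 on 3 of the 38 arms with intervals and below 1 on none. These were 4p, with 14 intervals without UV and 30 after UV, 5p, with 60 and 87, and 22q, with 128 and 168. The arm with the largest drop in number was 20p, from 69 to 52, a ratio of 0.754 whose interval includes 1.

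**Figure D4:**
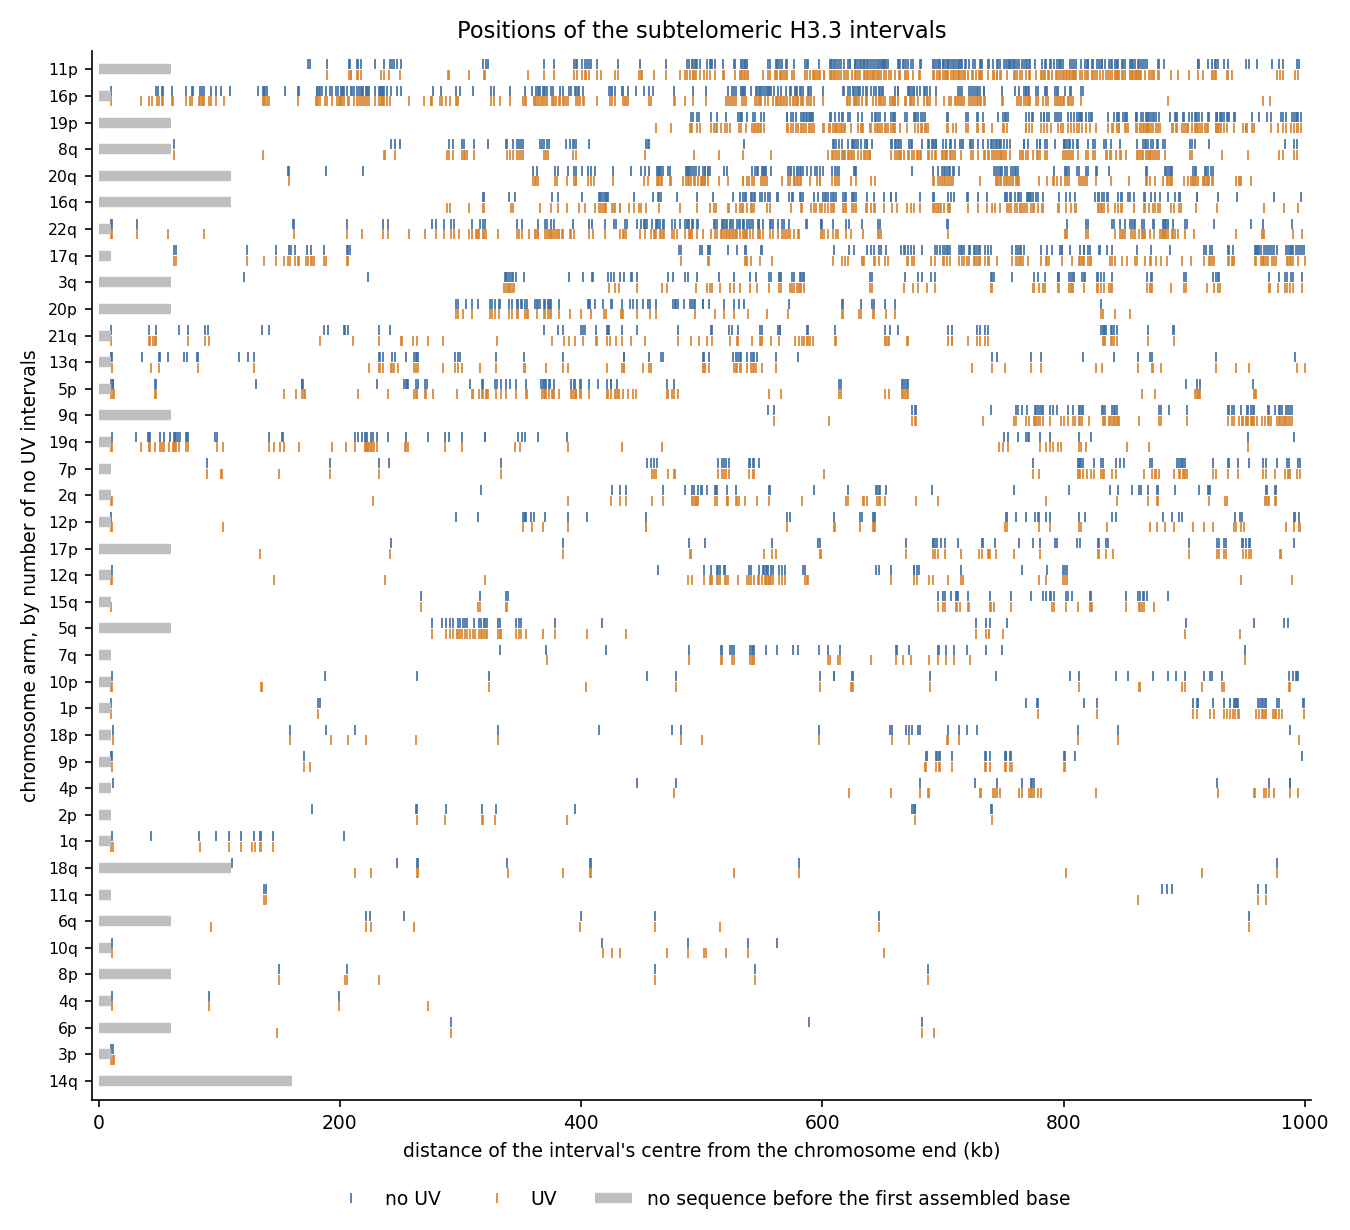
Distance of the centre of each subtelomeric interval from its chromosome end (horizontal axis, kb) on each of the 39 arms (rows, ordered by the no UV count). Blue ticks are no UV intervals, orange ticks UV intervals, and grey bars the stretch before the first assembled base. The terminal intervals stand next to the grey bars, and the first members of 19p lie 491 kb (no UV) and 462 kb (UV) from the end.

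Over all arms, the outer 1 Mb was dense in H3.3 intervals but not denser than the sequence next to it. It held 59.0 intervals per assembled Mb without UV (56.5 to 61.5) and 65.5 after UV (62.9 to 68.1). The next 1 Mb held 65.6 and 77.4, and the remainder of the autosomes 30.8 and 26.3. The ratio of the outer to the next 1 Mb was 0.899 without UV (exact binomial interval 0.849 to 0.952) and 0.846 after UV (0.802 to 0.893), and against the remainder it was 1.91 and 2.49. The first of these ratios depended on single arms. Without 11p it was 0.809 and 0.770, and without 1p, whose next 1 Mb holds 254 and 291 intervals, it was 0.982 (0.925 to 1.04) and 0.923. The outer window was the denser one on 20 of the 39 arms without UV and on 19 after UV, and the median arm had 37.4 intervals per Mb in the outer and 27 in the next 1 Mb without UV, and 39.4 and 30 after UV. Per once-occurring base the ratio without UV was 0.968 (0.914 to 1.02).

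The ratio of the number of UV to no UV intervals differed between the ends and the interior. It was 1.11 (1.05 to 1.18) in the outer 1 Mb and 1.18 (1.12 to 1.24) in the next 1 Mb, but 0.852 (0.844 to 0.861) in the remainder, where the UV list was the shorter. In the outer 1 Mb the ratio was 1.21 (1.11 to 1.32) for intervals at a TSS, 1.05 (0.958 to 1.14) for other intervals in a gene and 1.02 (0.870 to 1.19) for intervals between genes. The corresponding ratios in the remainder were 1.03, 0.791 and 0.806.

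The ratio varied with the GC content of the intervals in all 3 zones. Subtelomeric intervals had a median GC content of 57.5% without UV and 62.4% after UV, against 49.0% and 50.4% in the remainder, and the median was higher in the UV list on 25 of the 27 arms with at least 20 intervals without UV. Subtelomeric intervals below 40% GC had a ratio of 0.524, those from 45 to 50% 0.776 and those from 50 to 55% 0.831. The ratio was 1.82 (1.54 to 2.14) from 60 to 65% GC, 1.42 from 65 to 70% and 1.12 from 70% upward. In the remainder the same classes gave 0.503, 0.762, 0.868, 1.64, 1.42 and 1.12. Reweighted to the GC classes of the subtelomeric intervals, the remainder had a ratio of 1.10 and the next 1 Mb 1.17, beside 1.11 in the outer 1 Mb. GC content also affects the recovery of fragments during library preparation, and its part in the difference between the lists was not tested.

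**Figure D5:**
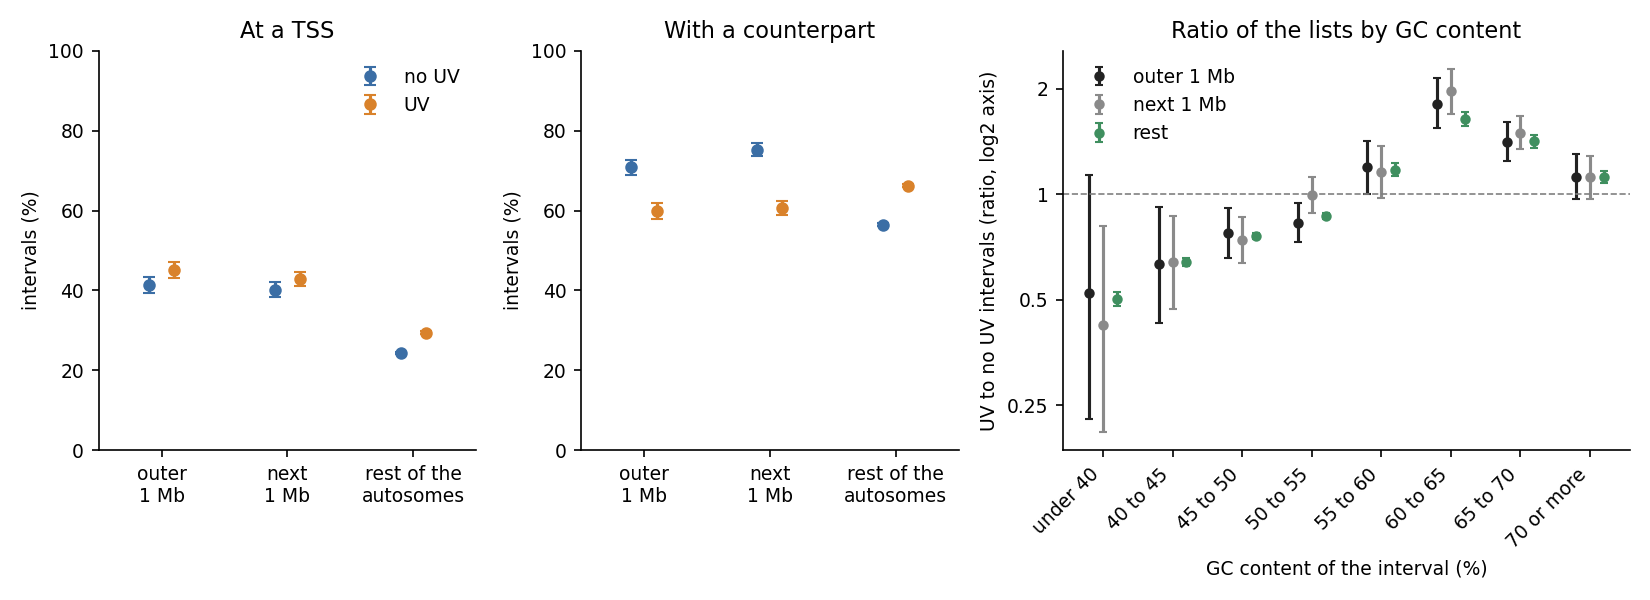
Left and middle: share of intervals at a TSS and share with a counterpart in the other list (vertical axes, %) in the outer 1 Mb, the next 1 Mb and the remainder of the autosomes, blue for no UV and orange for UV, with exact 95% intervals. Right: ratio of UV to no UV intervals (log2 axis) by GC content of the interval (%) in the 3 zones, with exact 95% intervals; the outer 1 Mb ran from 0.524 below 40% GC to a peak of 1.82 at 60 to 65%.

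Subtelomeric intervals lay at a TSS (within 1 kb of an annotated TSS) more often than those of the interior. The share was 41.3% without UV (39.3 to 43.4) and 45.04% after UV (43.1 to 47.0). Over all autosomal intervals it was 25.2% and 30.5%. The next 1 Mb had shares of 40.2% and 42.8%, so the outer window exceeded it by 1.12 ± 2.80 and 2.26 ± 2.65 percentage points (95% counting error), differences within that error. A further 44.3% and 41.8% of the members lay elsewhere in a gene and 14.3% and 13.2% between genes. When the interior was reweighted to the GC content of the members its TSS share became 44.2% without UV and 49.8% after UV, above the members' own. Reweighted to the members' strength instead, it stayed below them, at 25.5% and 32.1%.

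The TSS share of the members was 3.71 ± 2.85 percentage points higher in the UV list, and it was higher on 22 of the 27 arms with at least 20 intervals without UV. At equal GC content the difference was −0.666 percentage points, with a higher share after UV in 3 of 8 GC classes. By distance, the share ran from 34.0% at 900 to 1000 kb to 48.5% at 600 to 700 kb without UV, and from 39.8% in the outermost 100 kb to 51.0% at 200 to 300 kb after UV, with no steady trend towards the end. Intervals at a TSS were the strongest, at a median −log10 q of 6.80 (percentile 65.8) without UV and 9.40 (69.6) after UV, against 4.61 (45.3) and 5.54 (46.6) for other intervals in genes.

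Most subtelomeric intervals of the untreated cells were found again after UV. Of the 2197 intervals without UV, 1557 had a UV counterpart, or 70.9% (68.9 to 72.8), and of the 2440 UV intervals 1460 had one without UV, or 59.8% (57.9 to 61.8). Over all autosomal intervals these shares were 57.4% and 65.8%, the reverse order. Nearly as many intervals were shared in either direction, 50082 and 49855 over all autosomes. The larger share thus belongs to the shorter list, and the reversal restates the list lengths (87302 and 75823 over all autosomes). The next 1 Mb had 75.3% and 60.7%, so the outer window was lower by 4.39 ± 2.53 percentage points without UV, while after UV the difference of −0.834 ± 2.61 points lay within its counting error. The first of these differences turned to 0.694 when weaker intervals (−log10 q under 5) were left out. With the interior reweighted to the members' GC content, its shares were 70.4% and 63.8%, and reweighted to their strength they were 60.1% and 70.001%.

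The share with a counterpart rose with strength. Among members in the weakest of 5 equal classes of −log10 q of the autosomal list, 41.1% of the intervals without UV had a counterpart, and in the strongest class 98.9% (97.6 to 99.6) did. After UV the corresponding shares were 34.9% and 92.4%. The 640 members found in the no UV list only had a median percentile of 34.5, against 67.8 for those with a counterpart. For the 980 found in the UV list only it was 41.7, against 73.0. The members found in 1 list only also differed in base composition. Those of the no UV list had a median GC content of 51.2% and 26.1% lay at a TSS, whereas those of the UV list had a median of 61.9% and 42.0% lay at a TSS. Persistence also varied by arm. Over the 27 arms with at least 20 intervals it ran from 33.3% on 10p to 82.1% on 9q without UV, and from 45.5% on 10p to 88.9% on 9p after UV.

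Among the 1557 shared members, the strongest overlapping UV interval had a higher percentile in its list for 939 (60.3%). It was wider for 1089 (69.9%), with a median width of 491 bases without UV and 634 after UV. The same counts are not given here for the next 1 Mb or the remainder, so they do not set the members apart. Together the members covered 3.29% of the assembled outer 1 Mb without UV and 4.17% after UV. Coverage of the next 1 Mb was also higher in the UV list, at 4.12% without UV and 5.26% after UV. In the remainder it was 1.72% and 1.49%.

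The strongest members were mostly the same in both lists. The 5 strongest without UV were led by chr20:642371-643006 on 20p (−log10 q 104, percentile 99.91, fold enrichment 13.2), between genes and 10194 bases from the nearest TSS, that of *SRXN1*, which encodes sulfiredoxin. Its counterpart after UV, chr20:642333-643081, had 118 (percentile 99.76). The second, chr21:46285772-46287485 (101.7, percentile 99.90), covered TSSs of *MCM3AP*, a factor of mRNA export, and *YBEY*, an RNA processing enzyme of mitochondria. Its counterpart had 117 (percentile 99.75). Next came 2 intervals inside *PTBP1*, the polypyrimidine tract-binding splicing regulator. Chr19:810074-811916 had 101.2 (percentile 99.90), and 136 (percentile 99.87) after UV. Chr19:804234-807551, at internal TSSs of the gene and at *MIR4745*, had 82.8 (percentile 99.81), and 104 (percentile 99.64) after UV. The last, chr19:929201-930037 in *ARID3A*, a DNA-binding transcription factor gene, had 76.6 (percentile 99.75) without UV and 71.2 (percentile 98.85) after UV. By rank within the list, all 5 stood slightly lower after UV. They were picked as the strongest without UV, so a lower rank in the other list was the likelier outcome. The ranks are thus not read as a change after UV.

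After UV the strongest member was chr11:725536-728760 (145, percentile 99.90, fold enrichment 17.2) at a TSS of *EPS8L2*, which encodes an actin-regulating adaptor. It had a −log10 q of 62.1 without UV, at percentile 99.5. Chr8:144427802-144429623 at *VPS28*, a subunit of the ESCRT-I sorting complex, and overlapping *TONSL*, which encodes a histone reader at replication forks, had 119 (percentile 99.77), and 75.2 (percentile 99.74) without UV. The other 3 of the 5 strongest UV intervals were the 20p, 21q and the first of the *PTBP1* intervals described above.

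Members found in 1 list only were weaker, and those of the UV list included the stronger ones. The strongest UV interval without a counterpart, chr11:134224632-134225202 on 11q (−log10 q 37.2, percentile 95.4, GC content 76.2%), covered the TSS of *VPS26B*, a retromer subunit, and overlapped *NCAPD3*, a condensin II subunit. The second, chr11:619592-620152 (29.6, percentile 93.2), lay in an exon of *CDHR5*, which encodes a cadherin of the intestinal brush border. The third, chr5:376464-376844 (27.7, percentile 92.4), lay in the body of *AHRR*. In the no UV list the strongest were chr5:181235406-181236135 in *TRIM41*, a ubiquitin ligase gene (13.3, percentile 85.7, GC content 48.2%), chr17:82735626-82735958 at the TSS of *FN3K*, which encodes a kinase that removes sugar adducts from proteins (13.01, percentile 85.3, GC content 71.8%), and chr16:89993085-89993549 in the pseudogene *AFG3L1P* (12.9, percentile 85.2, GC content 47.1%).

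Subtelomeric genes more often had a TSS peak after UV. Of the 1806 genes of any type with a TSS in the outer 1 Mb, 550 (30.5%, 28.3 to 32.6) had a peak within 1 kb of a TSS without UV and 644 (35.7%, 33.4 to 37.9) after UV. Over all 59578 autosomal genes the shares were 25.6% and 28%, and in the next 1 Mb they were higher, at 36.2% and 43.3%. A TSS peak in the UV list only was found at 134 subtelomeric genes (7.42%) and in the no UV list only at 40 (2.21%). The backgrounds were 5.29% and 2.93%, and the next 1 Mb had 9.19% and 2.04%. Among the 647 protein-coding genes, 364 (56.3%) had a peak without UV and 422 (65.2%) after UV, where 49.1% and 55.2% of all autosomal coding genes did. The coding genes of the next 1 Mb had nearly the same shares as the members, 56.7% and 66.4%. Coding genes with a peak in the UV list only numbered 67 (10.4%, 8.12 to 12.96, against 9.26% of all), and in the no UV list only 9 (1.39%, 0.638 to 2.62, against 3.19%). In the next 1 Mb they numbered 64 of 601 and 6. All 9, listed after their values were seen, were *FN3K*, *CSNK2A1*, *ZNF692*, *SPATC1L*, *PCMTD2*, *FARP2*, *ZNF587*, *ZSCAN22* and *PSMB1*.

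The genes below are described by the −log10 q of the strongest peak within 1 kb of any annotated TSS, internal ones included, with its percentile in parentheses, first without UV and then after UV. Of 68 listed genes with a TSS peak in both lists, the strongest peaks of the 2 lists overlapped in 44 and lay at different places in 24, so each pair describes the gene and not always 1 interval.

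The gene families duplicated between chromosome ends had few TSS peaks. Of 90 annotated members in the outer 1 Mb, 4 had a peak without UV and 8 after UV, beside 30.5% and 35.7% of all subtelomeric genes, and 82 had none in either list. Those with a peak in both lists were *DDX11L10* and the 16p copy annotated as *DDX11L16*, which share 1 interval (30.3 at percentile 96.4, and 15.4 at 83.0), *DDX11L17* (22.5 at 93.7, and 20.6 at 88.3) and *DDX11L5* (25.9 at 95.04, and 28.7 at 92.8). *DDX11L8* (11.3), *RPL23AP53* (4.65), *FRG1* and *FRG1-DT* (2.99 each, from 1 interval) had a peak in the UV list only. The near-identical copies of these families share reads, so both the peaks and their absence at the OR4F, DUX4, WASH and FAM138 genes are uncertain.

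Zinc finger genes, many of which encode DNA-binding repressors and lie in clusters at the ends of 19q and 12q, had the largest difference in number among the 7 lists. Of 52 protein-coding *ZNF* genes, 13 had a TSS peak without UV and 24 after UV, with 11 in both lists, 13 in the UV list only and 2 (*ZNF692* and *ZNF587*) in the no UV list only. Of all 647 subtelomeric coding genes, 56.3% had a peak without UV, 65.2% after UV and 10.4% in the UV list only. The strongest peaks in both lists were those of *ZNF276* (34.7 at percentile 97.3, and 62.5 at 98.4) and *ZNF34* (34.7 at 97.3, and 36.9 at 95.3), and *ZNF324* had the highest value in the UV list only (26.4, percentile 91.8). *ZNF84* followed with 18.0. The other 11 of these 13, *ZNF10*, *ZNF891*, *ZNF324B*, *ZNF596*, *ZNF250*, *ZNF605*, *ZNF274*, *ZNF329*, *ZNF814*, *ZNF587B* and *ZNF776*, had a −log10 q between 3.23 and 6.95. Some of these peaks are shared between neighbours, as at *ZNF10* and *ZNF891*, and their sequences are related, so single calls are uncertain.

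Of 14 genes listed under DNA repair and checkpoints, 10 had a TSS peak without UV and 12 after UV, beside 56.3% and 65.2% of all subtelomeric coding genes. *RECQL4*, a RecQ helicase, had the highest value in both lists, from overlapping intervals (29.2 at percentile 96.1, and 70.4 at 98.8). Overlapping intervals also marked *TYMS*, thymidylate synthase (12.4 at 84.4, and 27.1 at 92.1), and *MPG*, the glycosylase that removes alkylated purines (5.43 at 53.4, and 24.5 at 90.9). At *TRIM28*, the co-repressor of zinc finger proteins, the strongest peaks of the lists did not overlap (12.7 at 84.9, and 31.8 at 93.9). The same held for *PIDD1*, a p53-induced death domain protein (15.5 at 88.6, and 18.9 at 86.9). *POLE*, the catalytic subunit of DNA polymerase epsilon, and *CHFR*, a mitotic checkpoint ubiquitin ligase, had a peak in the UV list only, at 4.65 and 4.94. The *CHFR* peak (percentile 41.7) lay 960 bases from its TSS and is the same interval as that of *ZNF605* above. *DTYMK* and *HUS1B* had none.

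A further 21 genes were listed under transcription, splicing and chromatin, with some ubiquitin and NEDD8 enzymes among them. Of these, 16 had a TSS peak without UV and 18 after UV, beside 56.3% and 65.2% of all subtelomeric coding genes. *PTBP1* had the highest value (82.8 at percentile 99.8, and 104 at 99.6), followed by *STUB1*, a chaperone-linked ubiquitin ligase (46.7 at 98.7, and 74.2 at 98.96). *UBE2M*, the NEDD8-conjugating enzyme, had 27.4 (95.6) and 31.2 (93.7), so its rank was lower after UV. *POLR3K*, a subunit of RNA polymerase III, and *SNRNP25*, a protein of the minor spliceosome, share an interval on 16p that stood at percentile 75.7 (9.04) without UV and 96.7 (44.7) after UV. At *MED16*, a Mediator subunit, the strongest peaks lay at different TSSs (16.8 at 90, and 29.5 at 93.1). *ZMYND11*, a reader of methylated H3.3, and *BRD9*, a subunit of a SWI/SNF complex, had a peak in the UV list only (6.90 and 5.48). *TBP*, *THOC1* and *CTDP1* had none in either list.

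Of the 16 genes of fibroblast matrix, receptors and growth factors with a TSS in the window, 12 had a peak without UV and 14 after UV, beside 56.3% and 65.2% of all subtelomeric coding genes. Overlapping intervals marked *FSTL3*, a secreted inhibitor of activin (60.5 at percentile 99.4, and 111 at 99.7), *METRNL*, a secreted factor (39.1 at 97.95, and 68.4 at 98.7), and *YES1*, a kinase of the Src family (25.9 at 95.04, and 54.3 at 97.8). At 3 named genes the strongest peaks of the lists were different intervals. *PDGFA*, a ligand of the PDGF receptors, had 36.9 (97.7) and 40.7 (96.1). *GAS6*, a ligand of TAM receptors, had 34.6 (97.3) and 35.7 (95.03). *AHRR*, the repressor of the aryl hydrocarbon receptor, had chr5:421072-421508 without UV (6.65 at 64.3) and chr5:428833-429768 after UV (69.3 at 98.8). *JAM3*, a junctional adhesion molecule (19.7), and *ADAM8*, a cell surface protease (2.23), had a peak in the UV list only, and *CHL1* and *FLT4* had none.

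Of 9 interferon and stress genes, 6 had a TSS peak without UV and 7 after UV, again beside 56.3% and 65.2% of all subtelomeric coding genes. Overlapping intervals marked *TRIB3*, a pseudokinase of the stress response (15.1 at percentile 88.1, and 37.3 at 95.4), *SIGIRR*, an inhibitory receptor (13.9 at 86.7, and 25.7 at 91.5), and *DUSP22*, a phosphatase (9.42 at 77.0, and 34.7 at 94.7). At *IRF7*, an interferon regulatory factor, the strongest peaks lay apart (17.9 at 90.96, and 30.5 at 93.5). *IFITM2*, an antiviral membrane protein, had a peak in the UV list only (2.88), in a cluster of near-identical *IFITM* genes. Of 24 genes used mainly in other tissues, 9 had a peak without UV and 10 after UV, and 14 had none in either list. These counts also stand beside the 56.3% and 65.2% of all subtelomeric coding genes, and lie below them. Without UV the 4 highest were *DRD4* (13.8), *HBQ1* (13.2), *OPRL1* (9.35) and *HBM* (7.29). After UV they were *TUBB3* (22.6), *ELANE* (18.0), *OPRL1* (15.0) and *DRD4* (14.0). *AZU1* (3.56) had one in the UV list only, while the 6 beta-defensin genes of 20p and the alpha-globin genes *HBA1* and *HBA2* had none. All 7 lists held more genes with a TSS peak in the UV list than in the no UV list, as did the 1806 subtelomeric genes as a whole, and neighbouring genes on dense arms share intervals.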

How the data were processed

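H3.3 ChIP-seq peak lists of 2 libraries (no UV and UV) were used, and the matching input libraries were not analysed here. The submitters' processing notes name bcl2fastq 2.17, Trimmomatic 3.36, BWA 0.7.12 and MACS 1.4.2, with hg38 as the build. The control and threshold of the H3.3 peak calls and the handling of reads with several matches are not given in the sources used here. For each peak the authors deposited a score, a fold enrichment, and −log10 p and −log10 q values. Rows with the same start and end, which differ in their summit, were merged into 1 distinct interval with its highest −log10 q. TSSs came from GENCODE 44 (59578 autosomal genes), and a peak was at a TSS within 1 kb. Repeated sequence was the share of 100-base words found more than once in the hg38 assembly. Shares have exact Clopper-Pearson intervals, densities exact Poisson intervals and ratios exact binomial intervals, at 95%. With 1 library per condition no test was made. The members and gene lists were chosen with earlier results of these data known. Named genes were, per list, up to 4 of the strongest with a TSS peak in both peak lists and those found in 1 only. Named intervals were the strongest, nearest to an end, richest in hexamers or strongest without a counterpart. Sequences were read with pysam 0.24.0, intervals computed with scipy 1.17.1, tables handled with pandas 2.3.3 and numpy 2.4.6, figures drawn with matplotlib 3.10.9 under Python 3.11.15, and the counting code was tested on simulated data. Some sequences and the intervals that hold them are not reported here. Window, threshold, overlap, TSS distance and arm choices were varied.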

Additional observations from a re-analysis of the deposited data

How the results depend on the processing

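Of 131 values recomputed under other settings, 105 stayed near the reported value (within its counting interval, or within 1.5 times for the count of arms), 25 moved further and 1 turned the sign of a difference whose interval excluded 0. Another 7 values changed sign in differences whose interval includes 0 as reported. The density ratio of the outer to the next 1 Mb (0.899 without UV, 0.846 after UV) was 0.842 without UV for intervals with −log10 q of 5 or more and 0.838 when every deposited row was counted. It was 0.489 and 0.478 for windows of 500 kb, and 0.995 and 0.936 over arms assembled to at least 90%. Leaving out 1 arm gave 0.809 (11p) to 0.982 (1p) without UV and 0.770 (11p) to 0.923 (1p) after UV. Per once-occurring base, a setting chosen after seeing the data, it was 0.968 and 0.911. With windows of 500 kb the TSS share without UV differed from the next window by −2.10 percentage points, and the counterpart share by −9.85 without UV and −3.55 after UV. With −log10 q of 5 or more the counterpart difference without UV changed sign to 0.694. The share of no UV members with a counterpart (70.9%) was 78.8% at that threshold, 74.0% with lists of equal length, 68.9% with an overlap of at least 50%, 75.0% by deposited row and 64.1% within 500 kb. The share of UV members (59.8%) was 55.4%, 56.4%, 66.1% (by deposited row) and 57.4% in the corresponding settings. The ratio of UV to no UV intervals (1.11) was 1.36 at −log10 q of 5 or more. The causes of these differences were not tested. No paired analysis was possible because each condition had 1 pooled library and no result comes from a test, and for the same reason no replicate could be left out. Depth, the peak threshold in reads and the placing of repeated reads are unknown, and each limits the counts near the ends.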
